A study of Mus musculus with 6 samples.

Results

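The genes that copy DNA and supply its building blocks were followed in mouse intestinal organoids treated with retinoic acid. The set held 55 genes, taken by gene symbol from the 21534 rows of the count table, and all 55 passed the filter on low counts that left 13700 rows for testing. Before a cell divides, the origin recognition complex and its partners load the MCM helicase onto DNA, kinases and the GINS complex then start it, and polymerases copy both strands. Ribonucleotide reductase and its neighbours make the deoxynucleotides, and chromatin factors package the new DNA. Many of these genes are switched on by E2F transcription factors when a cell commits to S phase, and in the small intestine they are known as markers of the dividing cells of the crypt.

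Organoids are small epithelial cultures, and these came from ileal crypts of wild-type mice (genotype C57Bl/6). All of them first spent 96 h in 10 µM CHIR99021, which inhibits the kinase GSK3, activates Wnt signalling and favours stem cells. One group then received 10 µM all-trans retinoic acid, an active derivative of vitamin A, for 24 h (3 libraries), and the other received vehicle (DMSO) for the same 24 h (3 libraries). Polyadenylated RNA was sequenced. The age and number of the animals, and whether the replicates were separate cultures, are not stated in the labels. A p-value therefore reflects the spread among these libraries alone, and that spread may be technical.

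Total counts were 15080190 to 21833846 in the retinoic acid libraries and 14919144 to 16927696 in the vehicle libraries. The treatments separated on the first principal component (44.8% of the variance), and library 3 of each group stood apart on the second (20%). Cyp26b1, which encodes an enzyme that degrades retinoic acid, averaged 921 ± 174 CPM with retinoic acid and 0.852 ± 0.482 CPM with vehicle (SD, n = 3 each). CPM are counts per 1000000 of the scaled library size. The 6 epithelial markers, Epcam among them, summed to 10318 to 11096 CPM with retinoic acid and 10416 to 11031 CPM with vehicle. In edgeR 0 of the 6 were called (3 at an unadjusted p under 0.05, and 2 higher in DESeq2, 0 in limma-voom). Markers of other cell types were low in both groups: 10 mesenchymal genes summed to 4.35 to 4.81 CPM with retinoic acid and 6.32 to 6.42 CPM with vehicle, 10 immune genes to 30.2 to 34.8 CPM with retinoic acid and 25.8 to 30.5 CPM with vehicle, and 5 endothelial genes to 0.859 to 2.30 CPM with retinoic acid and 2.02 to 2.96 CPM with vehicle. Of 4 tested immune markers, Cd68 was called higher (adjusted p = 0.0216), and that call was lost without library 1 or 2 of either group (adjusted p up to 0.107). Ptprc, which defines leukocytes, reached no more than 0.118 CPM in any library.

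E2F proteins bind a short DNA element that is known from the promoters of many replication genes. Promoter windows of 300 bases, 250 before to 50 after the transcription start, were found in the RefSeq table (GRCm38.p6) for 46 of the 55 genes. They were searched on both strands for the E2F element, written as TTTCCCGC, TTTCGCGC, TTTGCCGC or TTTGGCGC. At least 1 match lay in the windows of 17 of 46 genes (37.0%), against 467 of the 10305 tested genes with a window (4.53%). A match is a description of the letters and not a measured binding site. The 6 windows below belong to 4 subunits of the MCM helicase and to Uhrf1, which all fell with retinoic acid and hold the element, and to Orc3, which holds it and was not called. Each is printed 5′ to 3′ on the gene's own strand, with matches to the element or its reverse complement in capitals.
Mcm6 (chr1:128359656-128359955, minus strand): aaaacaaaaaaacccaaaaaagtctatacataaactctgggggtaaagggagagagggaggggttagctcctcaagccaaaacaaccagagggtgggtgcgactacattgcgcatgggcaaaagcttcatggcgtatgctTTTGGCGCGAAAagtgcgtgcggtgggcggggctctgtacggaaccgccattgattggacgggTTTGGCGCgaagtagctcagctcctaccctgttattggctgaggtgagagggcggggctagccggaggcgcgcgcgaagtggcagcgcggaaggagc
Mcm5 (chr8:75109259-75109558, plus strand): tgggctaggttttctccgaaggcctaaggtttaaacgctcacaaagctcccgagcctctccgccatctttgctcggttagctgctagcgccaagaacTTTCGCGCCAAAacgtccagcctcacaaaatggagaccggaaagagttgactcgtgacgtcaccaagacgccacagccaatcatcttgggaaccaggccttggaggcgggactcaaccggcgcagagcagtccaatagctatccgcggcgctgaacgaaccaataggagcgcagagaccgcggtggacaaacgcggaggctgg
Mcm3 (chr1:20820263-20820562, minus strand): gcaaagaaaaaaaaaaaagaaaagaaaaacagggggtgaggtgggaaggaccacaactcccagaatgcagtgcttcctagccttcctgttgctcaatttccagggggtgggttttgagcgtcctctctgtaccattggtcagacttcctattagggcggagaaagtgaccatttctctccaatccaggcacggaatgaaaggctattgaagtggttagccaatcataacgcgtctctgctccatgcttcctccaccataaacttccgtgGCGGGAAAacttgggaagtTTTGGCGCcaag
Mcm7 (chr5:138171834-138172133, minus strand): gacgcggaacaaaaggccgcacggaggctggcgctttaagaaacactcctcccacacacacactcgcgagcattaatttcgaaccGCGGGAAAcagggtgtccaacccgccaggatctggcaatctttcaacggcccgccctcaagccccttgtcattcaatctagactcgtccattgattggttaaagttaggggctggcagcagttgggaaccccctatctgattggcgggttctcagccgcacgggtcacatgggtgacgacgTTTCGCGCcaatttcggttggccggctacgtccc
Uhrf1 (chr17:56304063-56304362, plus strand): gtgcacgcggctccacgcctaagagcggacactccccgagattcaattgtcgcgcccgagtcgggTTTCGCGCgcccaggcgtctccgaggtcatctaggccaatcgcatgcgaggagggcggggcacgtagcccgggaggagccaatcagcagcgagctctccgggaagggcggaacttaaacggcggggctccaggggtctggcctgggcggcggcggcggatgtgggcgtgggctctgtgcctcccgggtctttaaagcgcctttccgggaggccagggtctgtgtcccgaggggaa
Orc3 (chr4:34614893-34615192, minus strand): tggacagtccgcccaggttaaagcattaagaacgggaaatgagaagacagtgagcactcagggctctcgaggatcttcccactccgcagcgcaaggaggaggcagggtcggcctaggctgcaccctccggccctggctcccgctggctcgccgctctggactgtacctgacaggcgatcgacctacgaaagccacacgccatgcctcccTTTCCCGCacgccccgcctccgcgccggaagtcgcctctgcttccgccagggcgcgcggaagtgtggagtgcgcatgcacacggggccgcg

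The long capital runs in the Mcm6 and Mcm5 windows are 2 matches that overlap, 1 on each strand. Mcm6 holds a further match 47 bases before the start, and Orc3 holds its match 41 bases before. Mcm7 and Uhrf1 each have another window, not printed, with 0 matches. The element was not confined to genes that fell. It was present for 6 of the 22 genes with a window that fell (Cdt1, Mcm3, Mcm5, Mcm6, Mcm7 and Uhrf1) and for 11 of the 24 that were not called (Cdc6, E2f2, Gins3, Lig1, Orc1, Orc3, Pola1, Pold1, Pold3, Pole2 and Rfc3). The CCAAT box, another common promoter element, was present for 26 of 46 genes (56.5%), against 42.7% of tested genes. The CHR element of cell cycle genes (TTTGAA or TTCGAA) was present for 10 of 46 (21.7%), against 16.4%. The direct repeat bound by retinoic acid receptors, searched as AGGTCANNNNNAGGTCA, matched in 0 of 46 genes and in 0 of the 10305 tested genes, which says only that these exact letters are not in these windows.

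Replication genes were lower with retinoic acid as a group. Of the 55 genes, 25 fell in edgeR's quasi-likelihood test (Benjamini-Hochberg adjusted p under 0.05), against 4.09% of all 13700 tested genes. None rose, against 5.37% of all tested genes, and none was higher at an unadjusted p under 0.05, in DESeq2 (5.95% of all genes higher) or in limma-voom (5.32%). All 3 retinoic acid libraries lay below all 3 vehicle libraries for 39 genes, including all 25 that fell, while this held for 12.6% of tested genes. The opposite order held for 0 of the 55 genes and for 12.9% of tested genes. The median log2 fold change was −0.42, or 75.0% of the vehicle level, and that of all tested genes was −0.01. In bulk samples, fewer cycling cells and less of these RNAs per cell cannot be told apart.

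The decreases were modest in size. Those that passed the test lay between 22.0% and 50.7%, and only Ccne2 fell by at least 2-fold. Summed over the 55 genes, the level was 1271, 1344 and 1356 CPM in the retinoic acid libraries and 1645, 1623 and 1742 CPM in the vehicle libraries, with no overlap. In each of the 9 pairings of a retinoic acid library with a vehicle library, 46 to 53 of the 55 genes were lower with retinoic acid, with a median log2 ratio between −0.56 and −0.30. The pairings were not counted over all tested genes. When the test asked for a change beyond 1.2-fold, which 0.883% of tested genes passed as lower, 10 genes passed: Mcm6, Mcm5, Mcm2, Uhrf1, Ccne2, Ccne1, Prim1, Pole, Rpa2 and Rrm2. The authors' deposited table called 24 genes lower, all among these 25, and 0 higher, where it called 2.13% of its rows lower and 3.32% higher. Without library 3 of both groups, 26 genes fell, against 5.32% of tested genes.

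**Figure D1:**
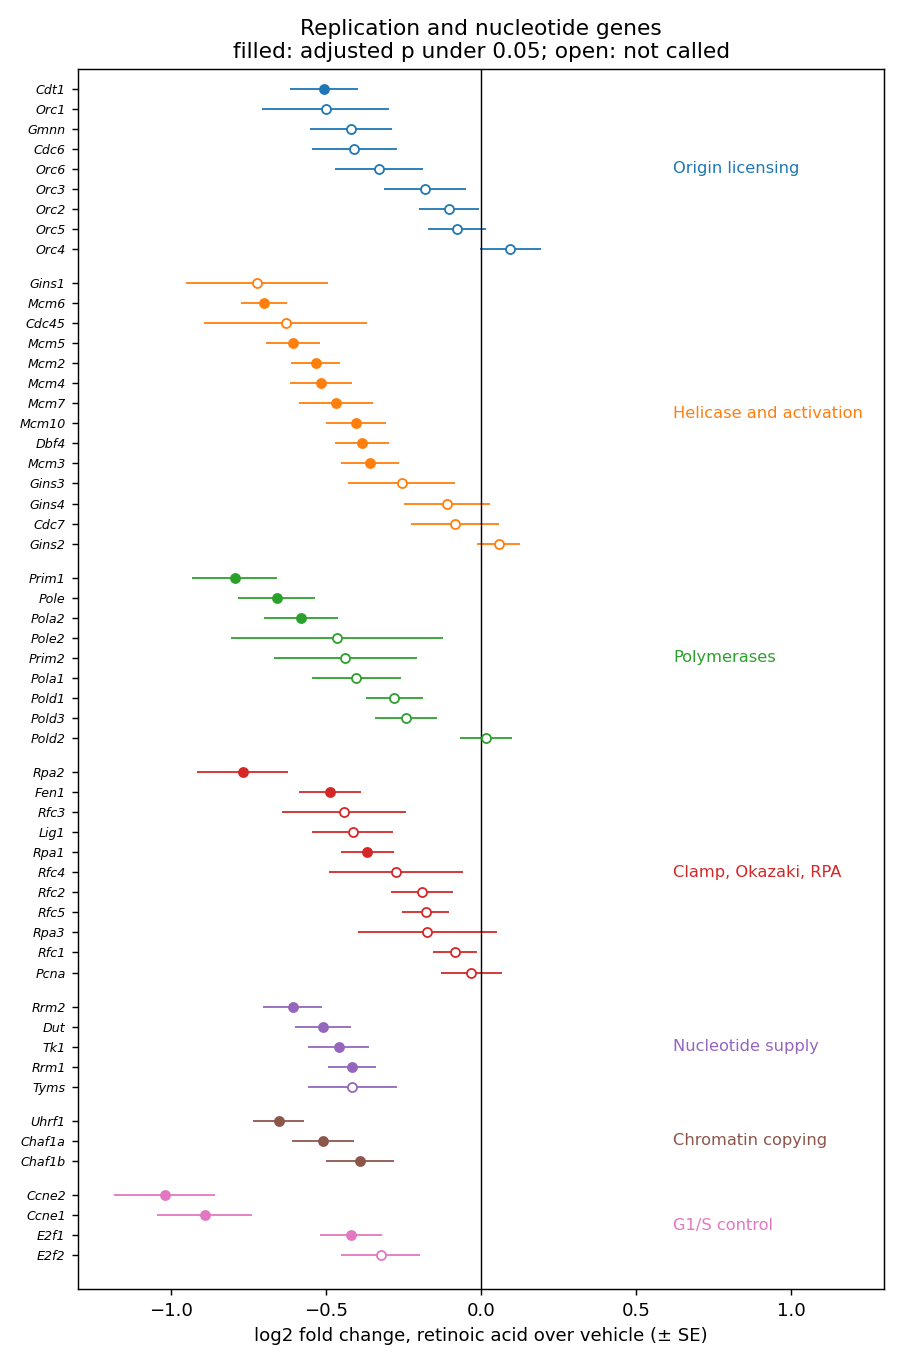
Log2 fold change of retinoic acid over vehicle with its SE for each of the 55 genes, grouped by role, with filled points for genes at an adjusted p under 0.05 and open points for the rest. Filled points all lie left of 0, between −1.02 and −0.36, and only Orc4, Gins2 and Pold2 lie right of it.

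The first step of replication is licensing, in which the origin recognition complex (Orc1 to Orc6), Cdc6 and Cdt1 place the helicase on DNA. Of 9 licensing genes 1 fell, against 4.09% of all tested genes, with a median log2 fold change of −0.33. In a class this small, 1 call cannot be told from that share. The gene that fell was Cdt1, the loading factor (ENSMUSG00000006585, mm10 chromosome 8, 122568015 to 122573128). Cdt1 had 39.3, 37.6 and 48.0 CPM in the retinoic acid libraries and 52.3, 57.0 and 68.5 CPM in the vehicle libraries. Library 3 was the highest of each group, and the groups did not overlap. The log2 fold change was −0.51 (SE 0.11, adjusted p = 0.00849). Orc5 and Orc4 had the highest levels among the licensing genes that were not called. Orc5 had 99.7, 105 and 91.8 CPM with retinoic acid and 119, 88.2 and 105 CPM with vehicle. Orc4 had 32.8, 26.0 and 28.2 CPM with retinoic acid and 27.9, 27.8 and 26.1 CPM with vehicle. The groups overlapped for both, and the interval of 2 SE around the log2 fold change ran from −0.26 to 0.11 for Orc5 and from −0.10 to 0.29 for Orc4.

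Gmnn, which encodes geminin, the inhibitor of Cdt1, did not pass the threshold, and neither did Cdc6, Orc1 or Orc6. Even so, every retinoic acid library lay below every vehicle library for each of these genes. Their log2 fold changes were −0.42 for Gmnn (adjusted p = 0.0623, or 0.0414 without library 3 of both groups), −0.41 for Cdc6 (0.0848), −0.50 for Orc1 (0.164) and −0.33 for Orc6 (0.192). Orc2 and Orc3 gave −0.10 and −0.18, with overlapping groups. Orc2 shares 29.8% of its exon length with Nif3l1 on the opposite strand. Nif3l1 had 169% to 230% of the Orc2 level and gave 0.03, so reads of the pair may be mixed. Of the 6 origin recognition genes, 0 were called in edgeR, DESeq2 or limma-voom. Of all tested genes, edgeR called 4.09% lower and 5.37% higher. In a set this small, 0 calls do not set the complex apart from tested genes at large. At an unadjusted p under 0.05, 2 of the 6 were lower, against 10.8% of all tested genes.

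All 6 subunits of the MCM ring, which unwinds the DNA, fell. With Mcm10 and Dbf4 they made 8 of 14 helicase genes, against 4.09% of all tested genes, with a class median of −0.44. Mcm6 (ENSMUSG00000026355, mm10 chromosome 1, 128331591 to 128359656) had 33.7, 33.4 and 36.0 CPM in the retinoic acid libraries and 55.1, 54.7 and 57.9 CPM in the vehicle libraries. The groups did not overlap, and the log2 fold change was −0.70 (SE 0.08, adjusted p = 3.18e-05). Mcm5 had 24.7, 25.8 and 25.2 CPM with retinoic acid and 36.2, 37.0 and 42.1 CPM with vehicle (log2 fold change −0.61, SE 0.09, adjusted p = 0.000489). Mcm2 had 60.7, 57.5 and 67.3 CPM with retinoic acid and 83.8, 88.0 and 97.1 CPM with vehicle (−0.53, SE 0.08, adjusted p = 0.00058). For both, vehicle library 3 was the highest of all and the groups were apart. Mcm4 had 26.0, 23.6 and 28.2 CPM with retinoic acid and 38.5, 40.2 and 32.8 CPM with vehicle (−0.52, SE 0.10, adjusted p = 0.00403), with the narrowest gap between retinoic acid library 3 and vehicle library 3.

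Mcm7 and Mcm3 fell by less certain amounts. Mcm7 averaged 15.6 ± 0.789 CPM with retinoic acid and 21.7 ± 3.22 CPM with vehicle (SD, n = 3 each), with a log2 fold change of −0.47 and an adjusted p of 0.0226 in edgeR's quasi-likelihood test. Its call was lost without retinoic acid library 1 (adjusted p = 0.0679) or 2 (0.0842), vehicle library 2 (0.0917) or 3 (0.0988), and without library 3 of both groups (0.0598). Mcm3 averaged 35.0 ± 4.53 CPM with retinoic acid and 44.8 ± 0.412 CPM with vehicle (log2 fold change −0.36, adjusted p = 0.0278). Retinoic acid library 1, at 29.8 CPM, was well below the other retinoic acid libraries at 38.1 and 37.1 CPM. Its call was lost when that library was left out (adjusted p = 0.157), and also when vehicle library 1 (0.0753), 2 (0.0913) or 3 (0.0656) was.

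Mcm10, which helps activate the loaded helicase, averaged 17.7 ± 0.965 CPM with retinoic acid and 23.4 ± 0.945 CPM with vehicle (log2 fold change −0.40, adjusted p = 0.0157), and lost its call without retinoic acid library 1 (0.0602) or 2 (0.0659) or vehicle library 1 (0.0673). Dbf4 encodes the activator of the Cdc7 kinase, which fires the origin. Dbf4 averaged 28.1 ± 2.33 CPM with retinoic acid and 36.6 ± 1.55 CPM with vehicle (log2 fold change −0.38, adjusted p = 0.0124), and lost its call without retinoic acid library 1 (0.0847). Cdc7 itself was not called, with a log2 fold change of −0.08 (SE 0.14).

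The GINS complex, which joins the MCM ring to form the moving helicase, gave 0 called subunits of 4 in edgeR, DESeq2 or limma-voom. With 4.09% of all tested genes called lower in edgeR and 5.37% higher, 0 of 4 does not set the complex apart. At an unadjusted p under 0.05, 1 subunit was lower, against 10.8% of all tested genes. Gins2 had 59.6, 60.0 and 60.7 CPM in the retinoic acid libraries and 54.7, 59.6 and 59.2 CPM in the vehicle libraries, with a log2 fold change of 0.06 (−0.08 to 0.19 at 2 SE). Exons of Gins2 share 67.3% of their length with Gse1 on the opposite strand. Gse1 averaged 108 CPM with retinoic acid and 100.1 CPM with vehicle. Whether the counting used strand is not given in the sources used here, so reads of the pair may be mixed. Gins4 had 12.1, 10.4 and 14.1 CPM with retinoic acid and 11.8, 13.1 and 14.8 CPM with vehicle, again with overlap.

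Gins1 was at the other end of the complex, at 2.58, 3.80 and 2.43 CPM with retinoic acid and 4.28, 5.45 and 4.61 CPM with vehicle. The groups did not overlap, and the log2 fold change was −0.72 with an SE of 0.23 (adjusted p = 0.066), which became a call without retinoic acid library 2 (adjusted p = 0.0339) and with no filter on low counts (0.0266). Cdc45, the remaining partner of the moving helicase, averaged 1.80 ± 0.239 CPM with retinoic acid and 2.79 ± 0.403 CPM with vehicle (log2 fold change −0.63, SE 0.26, adjusted p = 0.174). Gins3 gave −0.26 with overlapping groups.

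**Figure D2:**
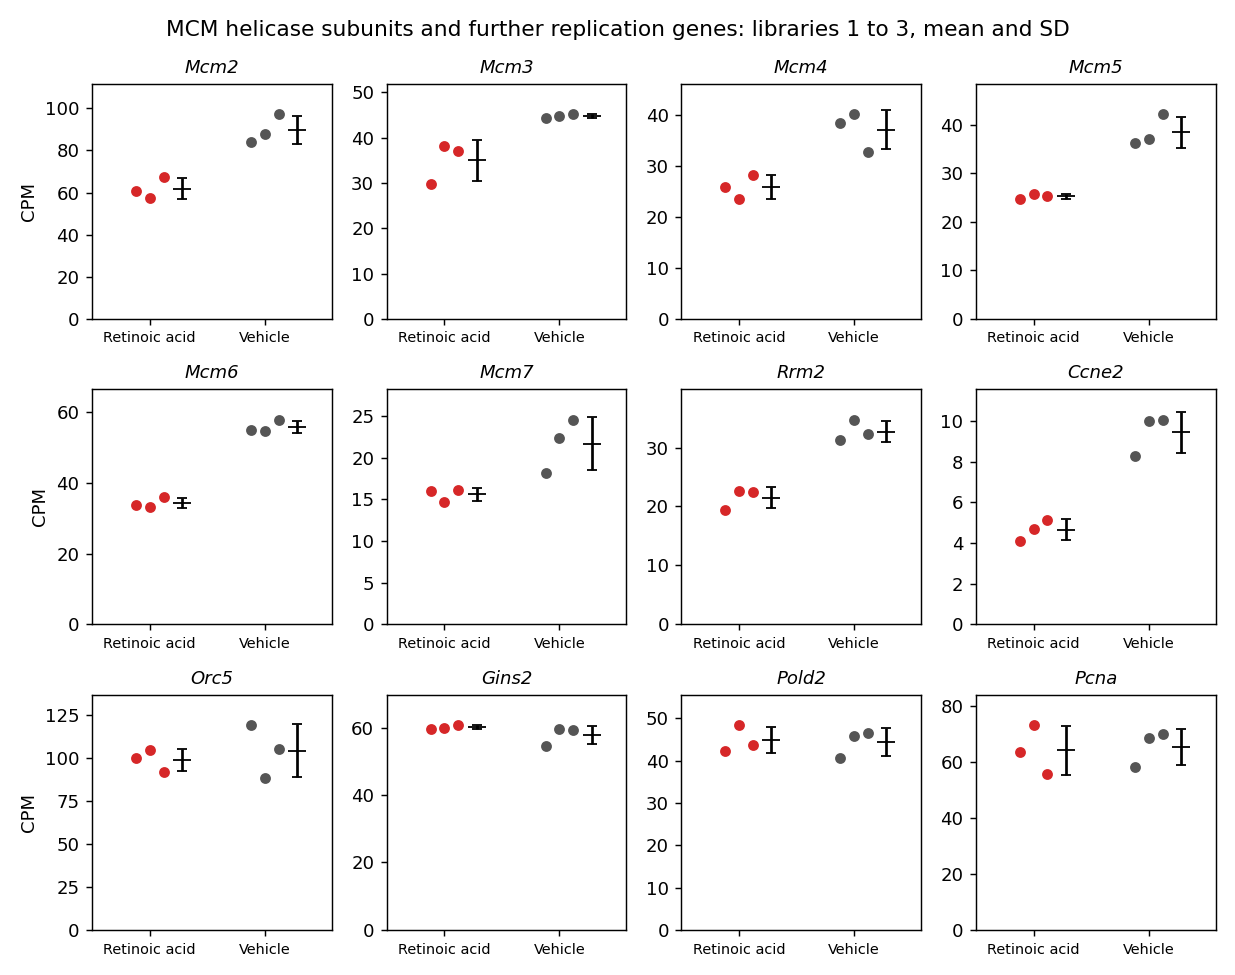
CPM in each library (points, libraries 1 to 3 from left to right within a group) with mean and SD for the 6 MCM genes, Rrm2, Ccne2, Orc5, Gins2, Pold2 and Pcna, retinoic acid in red and vehicle in grey, with each vertical axis starting at 0. The groups stand apart in the upper 8 panels and overlap in the 4 lower ones, where the log2 fold changes lie between −0.08 and 0.06.

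Per length of exon, subunits of a complex differed in level as well as in change. In CPM per kb, the MCM genes lay between 3.53 and 9.33 with retinoic acid and between 4.90 and 12.9 with vehicle. The origin recognition genes were far more uneven, with Orc5 at 16.0 CPM per kb with retinoic acid and 16.9 with vehicle, and Orc1 at 1.00 with retinoic acid and 1.41 with vehicle. Gins2 had 14.7 CPM per kb with retinoic acid and 14.1 with vehicle, and Gins1 had 1.93 with retinoic acid and 3.15 with vehicle. The Gins2 level may hold reads of Gse1, with which Gins2 shares 67.3% of its exon length. These levels rest on the summed exon length of each gene and not on the transcripts in use.

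**Figure D3:**
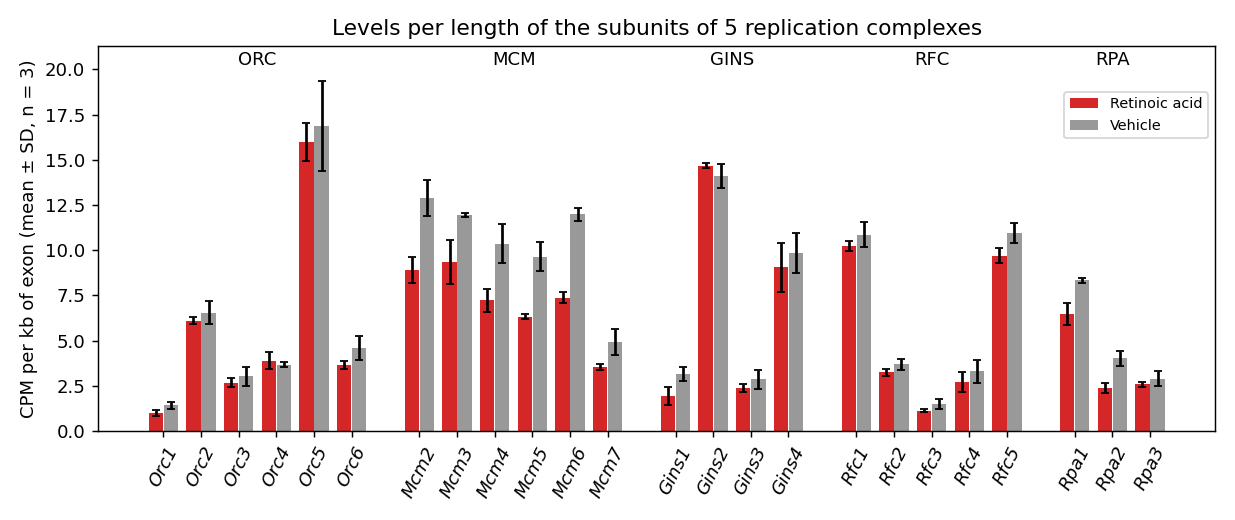
Mean level in CPM per kb of exon with SD (n = 3 each) for the subunits of the origin recognition complex (ORC), the MCM ring, GINS, the clamp loader (RFC) and replication protein A (RPA), retinoic acid in red and vehicle in grey. The red bar is the lower one for each of the 6 MCM genes, whereas Orc4 and Gins2 have a red bar slightly above the grey one.

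Polymerase genes fell in 3 of 9 cases, against 4.09% of all tested genes, with a median log2 fold change of −0.44. Prim1 encodes the catalytic subunit of primase, which lays the RNA primer (ENSMUSG00000025395, mm10 chromosome 10, 128015168 to 128030037). It had 7.22, 6.78 and 7.28 CPM in the retinoic acid libraries and 11.7, 11.4 and 13.9 CPM in the vehicle libraries (log2 fold change −0.80, SE 0.14, adjusted p = 0.00189). Pole, the catalytic subunit of the leading-strand polymerase epsilon, had 8.39, 9.36 and 8.34 CPM with retinoic acid and 13.5, 13.4 and 14.2 CPM with vehicle (−0.66, SE 0.12, adjusted p = 0.00316). Pola2, the accessory subunit of polymerase alpha, had 16.3, 15.4 and 18.2 CPM with retinoic acid and 21.1, 25.3 and 28.6 CPM with vehicle (−0.58, SE 0.12, adjusted p = 0.00641). All 3 had separate groups, and each kept its call whichever library was left out.

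Polymerase delta, which copies the lagging strand, gave 0 called subunits among Pold1, Pold2 and Pold3 in edgeR, DESeq2 or limma-voom. So few genes cannot be told from the 4.09% of all tested genes called lower in edgeR and the 5.37% called higher. At an unadjusted p under 0.05, 2 were lower, against 10.8% of all tested genes. The small subunit Pold4 is outside the 55 genes and rose, as given further on. Pold2, an accessory subunit, had 42.4, 48.3 and 43.8 CPM with retinoic acid and 40.5, 45.9 and 46.5 CPM with vehicle, with overlapping groups and a log2 fold change of 0.01 (−0.15 to 0.18 at 2 SE). Pold3 had 33.0, 34.9 and 43.1 CPM with retinoic acid and 45.0, 41.4 and 45.1 CPM with vehicle. Retinoic acid library 3 lay inside the vehicle range, and the log2 fold change of −0.24 (adjusted p = 0.164) passed the test without that library (adjusted p = 0.008) and without library 3 of both groups (0.0166). Pold1, the catalytic subunit, averaged 18.7 ± 0.372 CPM with retinoic acid and 22.7 ± 0.376 CPM with vehicle (−0.28, adjusted p = 0.0765).

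Of the other polymerase genes, Prim2 and Pole2 were low and imprecise. Pola1, at 8.13 CPM with retinoic acid and 10.8 CPM with vehicle, was near Prim1 and Pole in level and SE. Its fitted change was smaller than theirs, but differences between genes were not tested. Pola1, Prim2 and Pole2 gave −0.40 (SE 0.14), −0.44 (SE 0.23) and −0.47 (SE 0.34), with no overlap and no call. For Prim2, the large primase subunit, retinoic acid library 1 had 2.77 CPM while the remaining 5 libraries had 5.20 to 6.28 CPM.

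Among the clamp, Okazaki fragment and single-strand binding genes, 3 of 11 fell, against 4.09% of all tested genes, with a median of −0.28. Rpa2, a subunit of replication protein A, which coats single-stranded DNA (ENSMUSG00000028884, mm10 chromosome 4, 132768332 to 132778752), had 6.09, 7.46 and 7.68 CPM with retinoic acid and 11.4, 13.5 and 11.1 CPM with vehicle (log2 fold change −0.77, SE 0.15, adjusted p = 0.00377). Rpa1, the large subunit, had 32.4, 36.6 and 39.2 CPM with retinoic acid and 46.5, 45.7 and 47.3 CPM with vehicle (−0.37, SE 0.09, adjusted p = 0.0131). The groups stood apart for both, but the call for Rpa1 was lost without retinoic acid library 1 (adjusted p = 0.0947). Rpa3, the small subunit, averaged 2.92 CPM with retinoic acid and 3.28 CPM with vehicle and overlapped.

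Fen1, the nuclease that trims Okazaki fragments, had 47.2, 54.4 and 65.0 CPM with retinoic acid and 75.9, 73.4 and 84.2 CPM with vehicle (log2 fold change −0.49, SE 0.10, adjusted p = 0.00649). Library 3 was the highest of each group. Its exons share 78.8% of their length with the antisense gene Gm10143, which had 91.5% to 94.1% of the Fen1 level in every library and was itself lower (−0.51, adjusted p = 0.00579), so the pair cannot be told apart without the strand setting. Lig1, the ligase that joins the fragments, averaged 8.90 ± 0.797 CPM with retinoic acid and 11.8 ± 0.624 CPM with vehicle and was not called (−0.41, adjusted p = 0.0639).

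Pcna, the sliding clamp and a common marker of dividing cells (ENSMUSG00000027342, mm10 chromosome 2, 132249162 to 132253314), was not called. It had 63.7, 73.2 and 55.8 CPM in the retinoic acid libraries and 58.2, 68.5 and 70.0 CPM in the vehicle libraries. The groups overlapped, and the log2 fold change was −0.03 (−0.23 to 0.17 at 2 SE). Pcna has a near-identical copy in the table, the processed pseudogene Pcna-ps2 (99.2% identical over 781 bases). That row had 217, 238 and 205 CPM with retinoic acid and 235, 235 and 236 CPM with vehicle, 3.25 to 4.04 times the level of Pcna, so reads may be split between the rows. Summed, the pair averaged 284 ± 25.4 CPM with retinoic acid and 301 ± 6.56 CPM with vehicle (log2 fold change −0.08, SE 0.07, adjusted p = 0.534). Cdc6, Mcm7, Rfc5, Rrm2 and Uhrf1 also have a processed pseudogene copy in the genome, at 95% identity or more over at least 300 bases, so their counts may depend on how reads with several matches were treated.

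The clamp loader, Rfc1 to Rfc5, which opens the Pcna ring, gave 0 called genes of 5 in edgeR, DESeq2 or limma-voom. Beside the 4.09% of all tested genes called lower in edgeR and the 5.37% called higher, 0 of 5 is not unusual. At an unadjusted p under 0.05, 2 were lower, against 10.8% of all tested genes. Rfc1, its large subunit, had 60.0, 61.6 and 63.4 CPM with retinoic acid and 70.0, 62.3 and 63.7 CPM with vehicle, with a log2 fold change of −0.08 (−0.23 to 0.06 at 2 SE). The other 4 subunits lay between −0.44 for Rfc3 and −0.18 for Rfc5. Exons of Rfc4 share 12.65% of their length with Eif4a2 on the opposite strand. Eif4a2 averaged 291 CPM with retinoic acid and 298 CPM with vehicle, against 4.14 and 5.05 CPM for Rfc4, so reads may be mixed. Rfc2 (15.1%) and Rfc5 (10.7%) also share exon length with a gene on the opposite strand.

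Nucleotide supply genes fell in 4 of 5 cases, against 4.09% of all tested genes, with a median of −0.46. Rrm2, the regulated subunit of ribonucleotide reductase (ENSMUSG00000020649, mm10 chromosome 12, 24708241 to 24714146), had 19.4, 22.6 and 22.5 CPM in the retinoic acid libraries and 31.2, 34.7 and 32.2 CPM in the vehicle libraries (log2 fold change −0.61, SE 0.09, adjusted p = 0.000918). Rrm1, its large partner subunit, had 50.2, 56.9 and 48.4 CPM with retinoic acid and 68.7, 70.9 and 67.7 CPM with vehicle (−0.42, SE 0.08, adjusted p = 0.00277). Both subunits had separate groups. Dut, which clears dUTP before it can enter DNA, had 26.1, 29.4 and 26.3 CPM with retinoic acid and 42.0, 35.7 and 38.5 CPM with vehicle (−0.51, SE 0.09, adjusted p = 0.00244). The groups for Dut were apart. Thymidine kinase 1 (Tk1), the salvage enzyme of dividing cells, had 20.9, 23.4 and 20.6 CPM with retinoic acid and 26.9, 29.8 and 32.4 CPM with vehicle (−0.46, SE 0.10, adjusted p = 0.00819). The 4 genes had no overlap between groups and kept their calls whichever library was left out. Tyms, thymidylate synthase, had 9.23, 8.95 and 10.4 CPM with retinoic acid and 10.8, 12.7 and 14.8 CPM with vehicle. It did not pass (−0.42, adjusted p = 0.092), and without retinoic acid library 3 it did (0.048).

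All 3 chromatin copying genes fell, against 4.09% of all tested genes, with a median of −0.51. Uhrf1 brings the maintenance methyltransferase to newly copied DNA (ENSMUSG00000001228, mm10 chromosome 17, 56303321 to 56323486). It had 22.6, 22.7 and 23.0 CPM in the retinoic acid libraries and 36.6, 36.7 and 34.2 CPM in the vehicle libraries, a narrow spread within each group (log2 fold change −0.65, SE 0.08, adjusted p = 0.000159). Chaf1a, the large subunit of the histone chaperone CAF-1, had 28.5, 33.0 and 34.6 CPM with retinoic acid and 41.6, 44.4 and 51.1 CPM with vehicle (−0.51, SE 0.10, adjusted p = 0.00412). Over 52.5% of its exon length it shares bases with Ubxn6 on the opposite strand, which gave −0.19 (adjusted p = 0.194). Ubxn6 had 86.9% to 130% of the Chaf1a level, so reads of the pair may be mixed. Chaf1b, the partner of Chaf1a, had 13.2, 13.5 and 13.7 CPM with retinoic acid and 16.8, 17.0 and 19.2 CPM with vehicle (−0.39, SE 0.11, adjusted p = 0.0358). Despite separate groups, Chaf1b was the least stable of the 25 calls, lost without retinoic acid library 1 (adjusted p = 0.139) or 2 (0.0895), or vehicle library 1 (0.064), 2 (0.0733) or 3 (0.127), without library 3 of both groups (0.101), in DESeq2 (0.0662) and in the authors' deposited table (0.107).

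The G1/S genes decide entry into S phase, and 3 of 4 fell, against 4.09% of all tested genes, with a median of −0.66. Ccne2 and Ccne1 encode the E cyclins, which activate Cdk2. Ccne2 (ENSMUSG00000028212, mm10 chromosome 4, 11191351 to 11204779) had 4.12, 4.68 and 5.15 CPM in the retinoic acid libraries and 8.26, 10.0 and 10.1 CPM in the vehicle libraries (log2 fold change −1.02, SE 0.16, adjusted p = 0.00109). Ccne1 had 4.50, 5.22 and 5.81 CPM with retinoic acid and 9.59, 9.48 and 9.74 CPM with vehicle (−0.89, SE 0.15, adjusted p = 0.00192). Retinoic acid library 1 was the lowest for both cyclins, and the groups were well apart. Ccne2 shares 17.4% of its exon length with Ints8 on the opposite strand, which gave −0.04. Ints8 averaged 18.7 CPM with retinoic acid and 19.2 CPM with vehicle, so reads of the pair may be mixed.

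E2f1, an activating E2F factor, had 19.0, 23.7 and 22.3 CPM with retinoic acid and 29.4, 27.4 and 29.9 CPM with vehicle (−0.42, SE 0.10, adjusted p = 0.0162). Its call was lost when retinoic acid library 1 (adjusted p = 0.107) or vehicle library 1 (0.063) or 3 (0.0508) was left out. E2f2, a related activator, had 55.1, 56.4 and 71.6 CPM with retinoic acid and 74.6, 62.0 and 93.1 CPM with vehicle. Library 3 was the highest of each group, the groups overlapped, and the log2 fold change of −0.32 was not called (adjusted p = 0.15). It passed without retinoic acid library 3 (adjusted p = 0.0074), without library 3 of both groups (0.0328) and with no filter on low counts (0.00185).

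**Figure D4:**
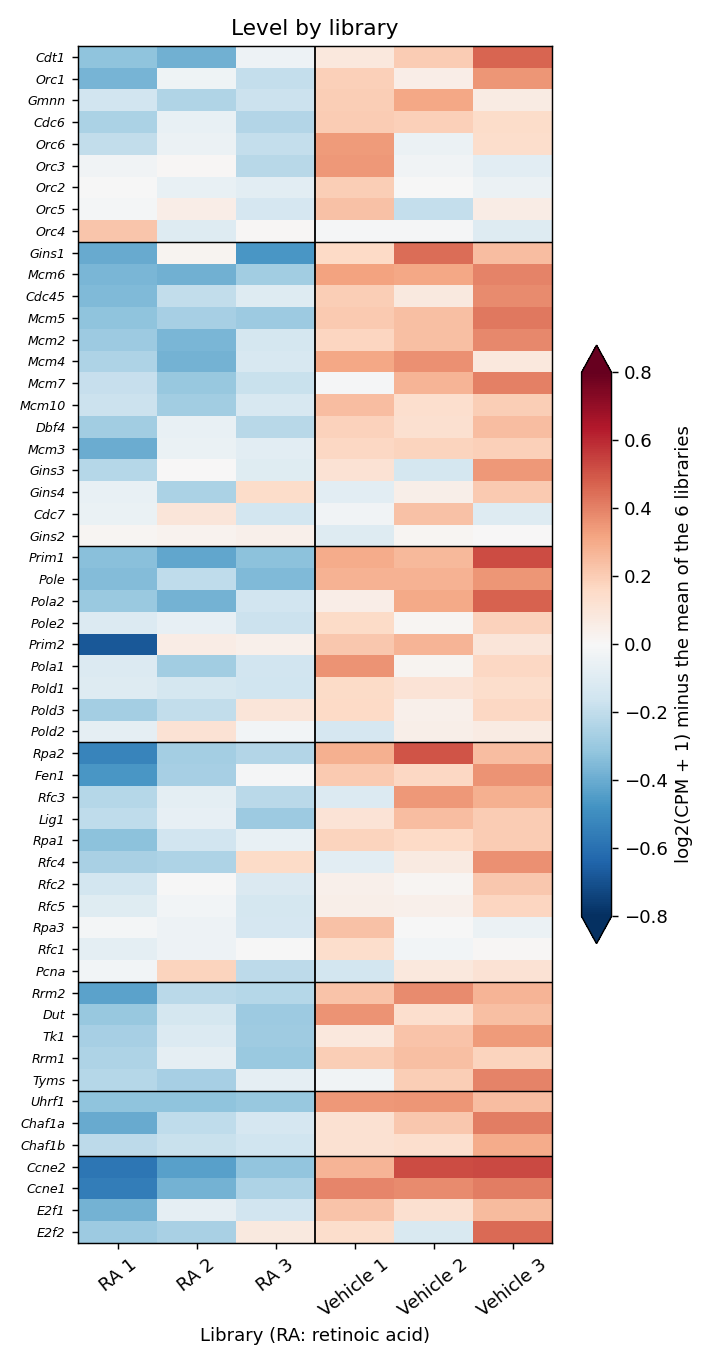
Log2(CPM + 1) of each of the 55 genes in each library minus the mean of the 6 libraries, with genes grouped by role and blue for low and red for high. The retinoic acid columns are mostly blue and the vehicle columns mostly red, with the lowest cell for Prim2 in retinoic acid library 1.

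Of the 30 genes that were not called, 27 had a negative log2 fold change, as did 52.0% of all tested genes. Every retinoic acid library lay below every vehicle library for 14 of the 30, against 12.6% of all tested genes, called or not. An unadjusted p under 0.05 with a lower level was reached by 14 of the 30, against 10.8% of all tested genes. Over all 55 genes 39 were lower at that unadjusted threshold, against 10.8% of tested genes. Of 30 genes at or above 20 CPM on average over the 6 libraries, 18 fell, against 7 of 25 below that level. The split by level was not counted over all tested genes, of which 4.09% were called lower at any level. The median log2 fold change was −0.39 in the higher group and −0.42 in the lower, while the median SE was 0.09 and 0.14. Of the 25 calls, 18 held whichever 1 library was left out. Without retinoic acid library 1 there were 18 (against 2.07% of tested genes), and without retinoic acid library 3 there were 28 (against 5.65%). After 9 genes that share at least 10% of their exon length with a neighbour were set aside, a choice made after seeing the data, 22 of 46 fell with a median of −0.42.

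A further list held 38 replication genes outside the 55, among them fork and checkpoint factors, topoisomerases, RNase H subunits and histone chaperones. Of these, 16 fell, against 4.09% of all tested genes, and 1 rose, against 5.37%, with a median of −0.31. Topbp1, an activator of the replication checkpoint, averaged 42.3 ± 0.639 CPM with retinoic acid and 60.1 ± 1.16 CPM with vehicle (log2 fold change −0.51, adjusted p = 0.000314). Dnmt1, the maintenance DNA methyltransferase that Uhrf1 recruits, averaged 46.5 ± 4.59 CPM with retinoic acid and 67.7 ± 5.32 CPM with vehicle (−0.54, adjusted p = 0.00113). The histone chaperone Asf1b and the chromatin remodeller Hells gave −0.65 and −0.62. Pold4, the small subunit of polymerase delta, rose, with 76.0, 74.6 and 71.9 CPM in the retinoic acid libraries and 54.96, 61.3 and 58.4 CPM in the vehicle libraries (0.35, SE 0.07, adjusted p = 0.0049). The 16 decreases became 9 when retinoic acid library 1 or vehicle library 2 was left out, and 10 when vehicle library 1 or 3 was.

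Of 35 genes of purine, pyrimidine and folate metabolism outside the 55, 3 fell (8.57%, against 4.09% of all tested genes) and 0 rose in edgeR (2 higher at an unadjusted p under 0.05, and 0 in DESeq2 or limma-voom), with a median of −0.10. Paics, an enzyme of purine synthesis, averaged 53.8 ± 0.959 CPM with retinoic acid and 71.6 ± 4.45 CPM with vehicle (log2 fold change −0.41, adjusted p = 0.00189). Prps2, which makes the ribose phosphate donor, gave −0.28 (adjusted p = 0.0402) and lost its call without retinoic acid library 2 or 3 or vehicle library 1 or 2. Without library 3 of both groups 5 genes of this list fell, against 5.32% of all tested genes.

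Of 31 tested regulators of the G1/S step, 7 fell, against 4.09% of all tested genes, and 2 rose, against 5.37%, with a median of −0.16. Neither rise passed the test against a 1.2-fold change. The rises were in Cdkn1a, the cyclin-dependent kinase inhibitor p21, with 942, 872 and 979.8 CPM in the retinoic acid libraries and 677, 698 and 727 CPM in the vehicle libraries (log2 fold change 0.41, SE 0.06, adjusted p = 0.00042), and in Cdc25a, a phosphatase that activates Cdk2, at 101 ± 3.97 CPM with retinoic acid and 79.6 ± 4.66 CPM with vehicle (0.34, adjusted p = 0.00456). Both held whichever library was left out. The falls included the repressor E2f8 (−0.62), cyclin A2 (Ccna2, −0.47), the inhibitor Cdkn1c (−0.95) and the E2F partner Tfdp2 (−0.34, not called without retinoic acid library 1 or vehicle library 1). The 7 decreases became 4 when retinoic acid library 1 was left out and 3 when vehicle library 1 was.

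Mitotic genes, which act after replication, gave 15 lower of 30 in edgeR, against 4.09% of all tested genes, with a median of −0.44. Of the 30, 0 were called higher, against 5.37%, and 0 were higher at an unadjusted p under 0.05, in DESeq2 or in limma-voom. Plk1 and Aurkb, which encode mitotic kinases, gave −0.42 and −0.50, and Foxm1, a transcription factor of mitotic genes, gave −0.50. Mki67, the proliferation marker, had 113, 134 and 105 CPM with retinoic acid and 193, 168 and 191 CPM with vehicle, so retinoic acid library 2 was the highest of its group and vehicle library 2 the lowest of its own. The 15 decreases became 6 when library 1 of either group was left out. Crypt stem cell markers fell in 7 of 15 cases and 0 rose, against 4.09% and 5.37% of all tested genes, with a median of −0.29. Among only 15 genes, 0 rises lie near that 5.37%. Again 0 were higher at an unadjusted p under 0.05 or by the other tools. The summed level of these markers was 2268 to 2363 CPM with retinoic acid and 3077 to 3125 CPM with vehicle. Slc12a2, Olfm4, Smoc2 and Lgr5 had the smallest p-values among them. The 15 enterocyte markers summed to 1867 to 2323 CPM with retinoic acid and 2103 to 2293 CPM with vehicle. Of these markers 3 were lower and 3 higher, against 4.09% and 5.37% of all tested genes. Their log2 fold changes ran from −1.21 to 4.71, so the sums hide changes of single markers in both directions. The part that these shifts in markers play in the replication genes was not tested.

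**Figure D5:**
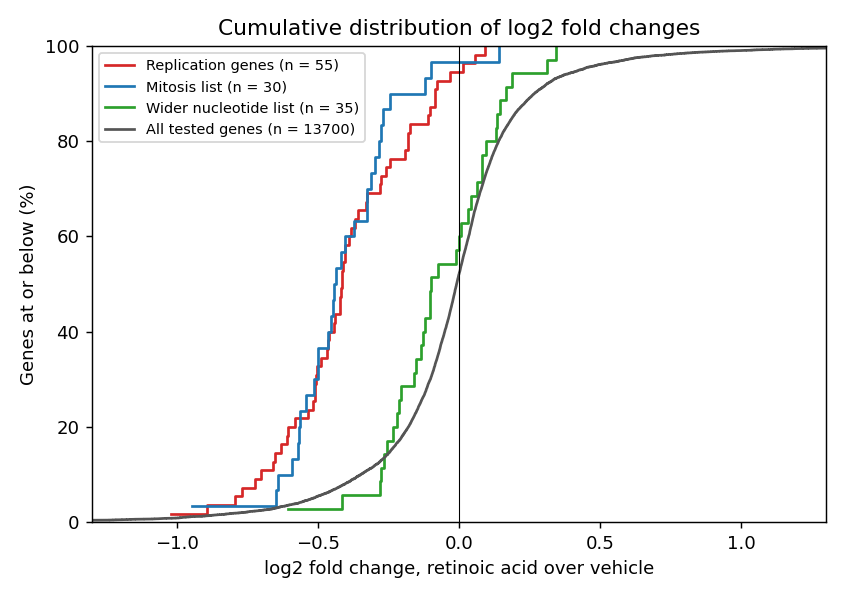
Percentage of genes at or below each log2 fold change of retinoic acid over vehicle, for the 55 replication genes (red), the 30 mitotic genes (blue), the 35 wider nucleotide genes (green) and all 13700 tested genes (grey), drawn between −1.3 and 1.3. The red and blue curves lie left of the grey one, with medians of −0.42 and −0.44, and the green curve, with a median of −0.10, stays nearer to it.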

How the data were processed

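The 6 libraries of polyadenylated RNA fell into 2 groups, 3 with retinoic acid and 3 with vehicle, grouped by their titles. The authors deposited 1 table with raw read counts per gene for each library and their own p-value, FDR and log2 fold change columns, which come from DESeq per the file headers. Reads were aligned to mm10, per the submitters' processing notes. Libraries were directional per the labels' protocols, but for the aligner, annotation, treatment of multiply mapping reads and use of strand in counting, the entry is: not given in the sources used here.

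Counts were tested with edgeR 4.0.16 (R 4.3.3): filterByExpr, TMM scaling (factors 0.978 to 1.02), glmQLFit and glmQLFTest with treatment as the only term, and Benjamini-Hochberg adjustment over 13700 genes (two-sided, threshold 0.05). SE was taken as the absolute log2 fold change over the square root of F. The steps were tested on simulated counts. Levels per kb use the summed exons of GENCODE vM21 (GRCm38), near-identical copies were searched with blastn 2.17.0, and promoters came from RefSeq. Libraries of 1 group differed by a chi-square of 4.09 to 11.1 per gene, above sampling noise, so none was merged. Alternatives were DESeq2 size factors, no filter, another count filter, DESeq2 1.42.0, limma-voom (limma 3.58.1), a test against 1.2-fold, a replicate block and leaving out libraries.

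Values in every library are given for up to 4 called and 2 uncalled genes per role, and from other lists up to 4 called genes per direction with the smallest p are named, most by their means or fold changes. Further values were chosen after they were seen. A gene that this rule takes is not reported here. The 55 genes, the lists and the tests were chosen with earlier results of these data known.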

Additional observations from a re-analysis of the deposited data

How the results depend on the processing

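The count of replication genes that fell was 24 in DESeq2, 25 with DESeq2 size factors, with another count filter and in limma-voom, 27 with no filter, and 18 to 28 with 1 library left out, and their median log2 fold change then lay between −0.44 and −0.39. None rose under any of these settings, the 1.2-fold test or the replicate block. Tested against a 1.2-fold change, 10 replication genes were lower, with 121 lower and 217 higher among all genes, 5 lower and 0 higher in the wider replication list, 1 lower in the wider nucleotide list, 2 lower and 0 higher among G1/S regulators, 1 lower among mitotic genes and 4 lower among crypt stem markers. With 1 library left out, all genes gave 289 to 787 lower and 443 to 978 higher, the wider replication list 9 to 16 lower, G1/S regulators 3 to 8 lower and mitotic genes 6 to 18 lower. Leaving out 1 library turned the sign of 5 genes near 0: Orc4 (−0.0046 to 0.16), Orc5 (−0.18 to 0.028), Cdc7 (−0.16 to 0.035), Pold2 (−0.048 to 0.055) and Pcna (−0.13 to 0.061). Added after seeing the data, leaving out library 3 of both groups gave 0.11 for Pcna and 5 lower in the wider nucleotide list. The cause of these shifts was not tested.

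The replicate numbers were checked for pairing: libraries of the same number had deviations correlated at 0.128, 0.0975 and 0.258, so number 2 missed the limit of 0.1, and the samples share only a number, although each library correlated best with its own number. With the replicate block, 33 replication genes were lower (the 25 with Gmnn, Gins1, Pola1, Pold1, Pold3, Lig1, Tyms and E2f2), all genes gave 1052 (7.68%) lower and 1224 higher, the wider nucleotide list 7 lower and 1 higher, and G1/S regulators 11 lower. Pole2, Cdc45, Gins1, Prim2, Rpa3, Rfc4, Rfc3 and Orc1 had an SE of at least 0.20 and mean levels of 1.05 to 5.17 CPM, below those of the other 47 replication genes.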
